A study of Sus scrofa with 6 samples.

Results

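Notch signalling passes between neighbouring cells: a membrane-bound ligand of the Jagged or Delta-like family on one cell binds a Notch receptor on the next, proteases then free the receptor's intracellular part, and this part joins RBPJ in the nucleus and turns on genes of the HES and HEY families. In the lung the pathway is known for the choice between secretory and ciliated cells in the airway epithelium, for the sprouting and arterial identity of endothelial cells, and for the coating of vessels by smooth muscle and pericytes. The genes described here are 10 named receptors, ligands and targets (NOTCH1, NOTCH2, NOTCH3, NOTCH4, JAG1, JAG2, DLL4, HES1, HEY1 and HEYL), chosen by symbol. Pig Ensembl identifiers led to 7 of these 10 among the 14579 mRNAs of the table. NOTCH1, HES1 and HEYL matched no row by symbol and were not analysed here, so the receptor and target groups are incomplete.

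Lung tissue came from 6 female piglets, all crosses of a Tibetan boar and a Meishan sow. The prenatal group held 3 piglets, each from its own sow, taken on the last day before birth, and the neonatal group held 3 piglets of 3 further sows, taken 2 days after birth. The labels name no transgene or test treatment, all piglets were bled out after an injection of ketamine, and each gave 1 library. The prenatal piglets were taken from the sow before birth, so stage and the way the lung was obtained cannot be told apart. Values are FPKM (fragments per kilobase of transcript, scaled to the mapped fragments of the library), which are levels per length and can be compared between genes, and the table holds no read counts, so the depth behind a single value is unknown. The lung label was checked against surfactant protein C (SFTPC), a marker of alveolar type II cells, which lay between 3171 and 8790 FPKM in all samples. Across the whole table the median difference between the groups was 0.13 on the log2(FPKM + 1) scale, and after median-of-ratios scaling it was -0.0090, so small differences are read against this shift. Of 12 lists of cell type markers, with 52 of 78 genes found, 2 held a gene past the threshold. These were the arterial endothelial list with 1 (GJA5) and the mural list with 3 (ACTA2, TAGLN and CNN1). Over the 12 lists together, such calls among 52 genes lie near the 6.87% called over all mRNAs. Taken alone, the mural list lies above that share, with 3 of its 8 genes called and 7 of the 8 higher in the neonatal group. What lies behind the mural calls was not tested.

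No member of the Notch group passed an adjusted p of 0.05 (limma with Benjamini-Hochberg adjustment over all 14579 mRNAs): 0 of 7 were called, where 6.87% of all mRNAs were. By an unadjusted p under 0.05, 2 of 7 members passed, DLL4 and JAG1, against 24.2% of all mRNAs. These ligands were also the 2 of 7 members whose groups did not overlap, DLL4 with every neonatal value above and JAG1 with every neonatal value below the prenatal ones, while 30.5% of all mRNAs showed no overlap in one direction or the other, 20.9% with all neonatal values above and 9.64% with all below. These counts of members lie near the shares of the whole table, and nothing particular to the Notch genes is read from them. The median difference over the 7 members was -0.24 on the log2(FPKM + 1) scale, beside 0.13 over all mRNAs, with 2 members higher and 5 lower in the neonatal group.

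**Figure D1:**
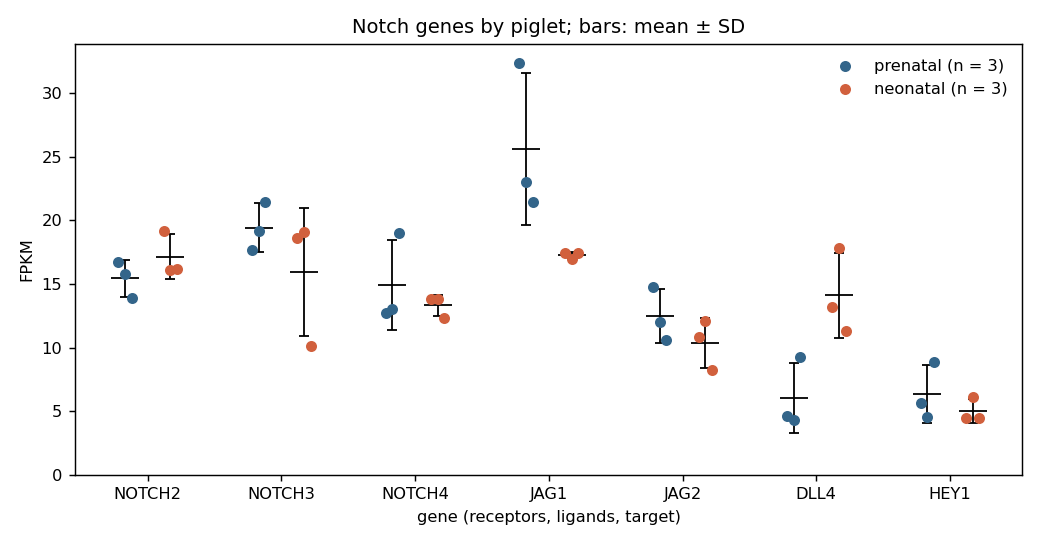
FPKM (vertical axis, linear from 0) of the 7 Notch genes found, with 1 point per piglet, prenatal in blue and neonatal in orange, and the mean ± SD of each group (n = 3). DLL4 and JAG1 are the genes without overlap between the groups, DLL4 with neonatal values from 11.3 to 17.8 and JAG1 with neonatal values from 16.9 to 17.4.

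DLL4, the Delta-like ligand of arterial and sprouting endothelial cells, had the largest difference of the 7 members. Its level was 4.60, 4.28 and 9.22 FPKM in the prenatal piglets (Prenatal1, Prenatal2 and Prenatal3, always given in this order) and 13.2, 17.8 and 11.3 FPKM in the neonatal piglets (Neonatal1, Neonatal2 and Neonatal3). All neonatal values were above all prenatal ones, and Prenatal3 stood apart within its own group, closer to the lowest neonatal value than to the other prenatal piglets. The mean went from 6.04 ± 2.77 to 14.1 ± 3.35 FPKM (SD, n = 3 each), a ratio of 2.34. On the log2(FPKM + 1) scale the difference was 1.15 (standard error 0.30, 95% interval 0.44 to 1.85), or 1.02 above the median of all mRNAs, with an adjusted p of 0.0682 in limma. The call turned on 1 library: without Prenatal3 the difference was 1.45 with an adjusted p of 0.0440, and without any other sample the adjusted p lay between 0.118 and 0.237. DLL4 therefore did not pass the threshold with all samples, although its interval excluded 0.

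JAG1, the Jagged ligand used in airway epithelium and vascular smooth muscle, was the most abundant of the ligands before birth. Its values were 32.4, 23.0 and 21.4 FPKM before birth and 17.4, 16.9 and 17.4 FPKM after birth. The neonatal piglets were almost level, with a coefficient of variation of 1.61% beside 23.2% in the prenatal group, where Prenatal1 was the highest. The means were 25.6 ± 5.94 and 17.3 ± 0.278 FPKM (SD, n = 3 each). The difference on the log2(FPKM + 1) scale was -0.52 (standard error 0.20, 95% interval -0.99 to -0.054, limma adjusted p = 0.168). Without Prenatal1 the difference was -0.35 (adjusted p = 0.332). JAG1 was past the threshold only after quantile normalization of the samples, with a difference of -0.77 and an adjusted p of 0.0498.

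JAG2, the second Jagged ligand, overlapped between the groups. It had 14.7, 12.0 and 10.6 FPKM before birth and 10.9, 12.1 and 8.23 FPKM after birth. The highest value was in Prenatal1 and the lowest in Neonatal3. The difference on the log2(FPKM + 1) scale was -0.24 (standard error 0.21, 95% interval -0.73 to 0.25, limma adjusted p = 0.515), and without Neonatal3 it was -0.098.

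The summed FPKM of the 3 ligands was 44.1 ± 6.71 before and 41.7 ± 4.95 after birth (SD, n = 3 each). The shares of DLL4 and JAG1 in this sum did not overlap between the groups, while that of JAG2 did. DLL4 held 8.89%, 10.9% and 22.4% of the ligand sum in the prenatal piglets and 31.7%, 38.0% and 30.6% in the neonatal ones. Every neonatal share was above every prenatal share, with means of 14.1% ± 7.28 and 33.5% ± 3.997 (SD, n = 3 each) that lay 19.4 points apart. The exact two-sided permutation p was 0.1, below which 3 against 3 cannot go, and 0.3 after adjustment over 6 shares. With this lower limit the test cannot decide whether the make-up of the sum differed. JAG1 held 62.6%, 58.5% and 52.0% before birth and 42.1%, 36.2% and 47.1% after birth, also without overlap. The difference was -15.9 points on average (exact two-sided permutation p = 0.1, adjusted 0.3). The 3 shares make up the whole ligand sum, so a higher DLL4 share leaves less for the others. The JAG1 share is thus not a result apart from that of DLL4, and both genes were already without overlap in FPKM. The JAG2 share was 28.2% ± 2.47 and 24.8% ± 2.16 (SD, n = 3 each), with overlap (exact two-sided permutation p = 0.3; 0.36 adjusted), and its difference of -3.48 points was -2.31 without Prenatal2 and -2.23 without Neonatal3. The ratio of JAG1 to DLL4 within a piglet was 7.04, 5.37 and 2.32 before birth and 1.32, 0.951 and 1.54 after birth, so that JAG1 was the lower of the pair in Neonatal2 alone.

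**Figure D2:**
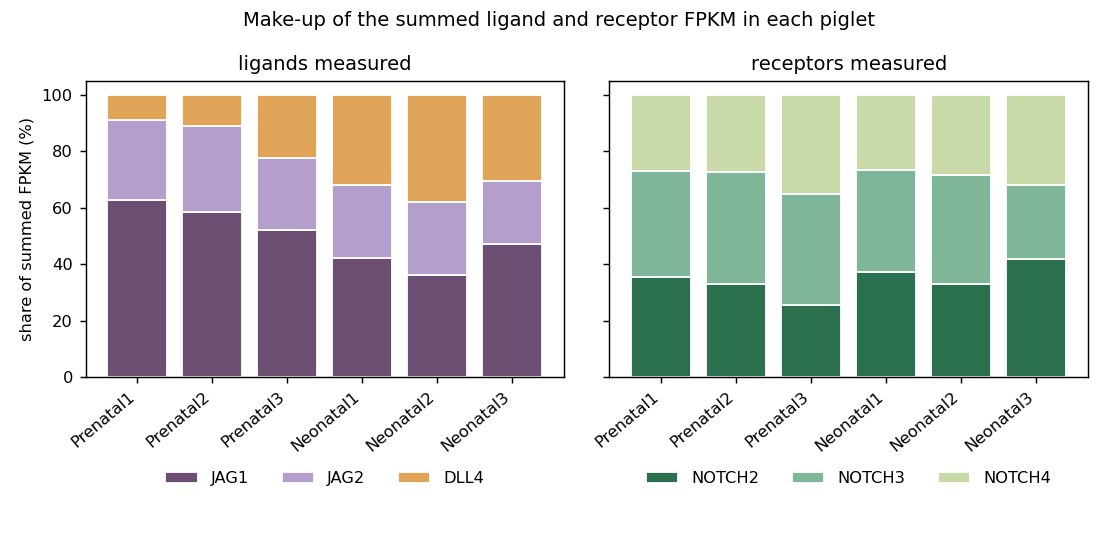
Share (%) of each measured ligand (left) and receptor (right) in the summed FPKM of its kind, with 1 bar per piglet. The DLL4 part of the ligand bars is between 8.89% and 22.4% in the prenatal and between 30.6% and 38.0% in the neonatal piglets, and the receptor bars overlap between the groups for NOTCH2, NOTCH3 and NOTCH4 (NOTCH1 was not analysed here).

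None of the 3 receptors found passed the threshold, and their groups overlapped. NOTCH2, a broadly expressed receptor, was measured at 16.7, 15.8 and 13.9 FPKM in the prenatal piglets and 19.2, 16.1 and 16.2 FPKM in the neonatal piglets. The lowest value was in Prenatal3 and the highest in Neonatal1, and the groups overlapped. Its difference on the log2(FPKM + 1) scale was 0.14 (standard error 0.17, 95% interval -0.26 to 0.54, limma adjusted p = 0.649), which was 0.013 above the median of all mRNAs and turned to -0.027 after median-of-ratios scaling and to -0.075 after quantile normalization.

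NOTCH3, the receptor of vascular smooth muscle and pericytes, had 17.7, 19.1 and 21.5 FPKM before birth and 18.6, 19.1 and 10.1 FPKM after birth. Neonatal3 was the lowest of all samples, while Neonatal1 and Neonatal2 lay inside the prenatal range. The difference on the log2(FPKM + 1) scale was -0.32 (standard error 0.26, 95% interval -0.92 to 0.29, limma adjusted p = 0.492), and it was -0.039 without Neonatal3. Beside it, the 8 mural markers had a summed level of 353 to 539 FPKM before and 1064 to 1730 FPKM after birth. Of these, the smooth muscle genes ACTA2, TAGLN and CNN1 rose, with differences of 1.74, 1.75 and 2.099 on the log2(FPKM + 1) scale (limma adjusted p = 0.0138, 0.0317 and 0.0102), and the other 5 did not pass. Of these 5, MYH11, PDGFRB, CSPG4 and MCAM stood at 0.74, 0.23, 0.27 and 0.63, and RGS5, a pericyte gene, was the single one of the 8 with a lower mean after birth, at -0.76. RGS5 is on the paper's list of changed mRNAs, called there with Cuffdiff. Its symbol was taken from that list, and whether the other mural genes are on it is not stated here. None of the 8 was listed at 0. In such bulk tissue, fewer cells of a type and less RNA per cell cannot be told apart, and the part of the mural cells in the NOTCH3 values was not tested.

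NOTCH4, a receptor found mainly on endothelial cells, was at 12.7, 13.0 and 19.0 FPKM before birth and at 13.8, 13.8 and 12.3 FPKM after birth. Prenatal3 stood apart as the highest, and the other piglets lay close together. The difference on the log2(FPKM + 1) scale was -0.13 (standard error 0.20, 95% interval -0.60 to 0.34, limma adjusted p = 0.724), and its sign turned to 0.045 without Prenatal3. The summed FPKM of the 3 receptors was 49.8 ± 3.95 and 46.4 ± 6.82 (SD, n = 3 each). The shares of NOTCH2, NOTCH3 and NOTCH4 in it differed by 5.99, -5.25 and -0.737 percentage points (exact two-sided permutation p = 0.3, 0.2 and 0.8; 0.36, 0.36 and 0.8 adjusted), each with overlap. These differences moved with single libraries. That of NOTCH2 was 3.09 points without Prenatal3 and 3.68 without Neonatal3, that of NOTCH3 was -1.48 without Neonatal3, and that of NOTCH4 turned to 1.89 without Prenatal3 and to 0.373 without Neonatal1 (lowest -2.20, without Neonatal3).

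HEY1, a transcriptional repressor of the Hairy family and a direct Notch target in endothelium, was the single target among the members that could be measured. It had 5.62, 4.51 and 8.88 FPKM in the prenatal and 4.47, 6.11 and 4.47 FPKM in the neonatal piglets. The highest value was in Prenatal3 and the groups overlapped. The difference on the log2(FPKM + 1) scale was -0.25 (standard error 0.26, 95% interval -0.86 to 0.35, limma adjusted p = 0.584), and it was -0.017 without Prenatal3. Prenatal3 held the highest value of 3 of the 7 members, NOTCH3, NOTCH4 and HEY1, and Neonatal3 the lowest of 3, NOTCH3, NOTCH4 and JAG2.

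The order of the levels was as follows. Before birth the mean FPKM ran from JAG1 (25.6) over NOTCH3 (19.4), NOTCH2 (15.5), NOTCH4 (14.9), JAG2 (12.4) and HEY1 (6.34) to DLL4 (6.04). After birth it ran from JAG1 (17.3) over NOTCH2 (17.1), NOTCH3 (15.9), DLL4 (14.1), NOTCH4 (13.3) and JAG2 (10.4) to HEY1 (5.02). In the prenatal group the ranges of neighbours in this order were apart only between NOTCH3 and NOTCH2 and between JAG2 and HEY1. In the neonatal group they were apart only between NOTCH4 and JAG2 and between JAG2 and HEY1. Among the 5 genes above JAG2 in the neonatal order, neighbours overlapped, while the ranges of JAG1 and NOTCH2 lay wholly above that of NOTCH4. Among all mRNAs, the mean level of DLL4 went from the 54.0 to the 73.7 percentile and that of JAG1 from the 87.9 to the 78.3 percentile.

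Of 52 other genes of the pathway, 36 were found and 4 passed the threshold, each higher in the neonatal group, where 5.41% of all mRNAs were called higher. They were the proteases FURIN and ADAM17, the acetyltransferase gene KAT2A and the E3 ligase gene DTX4. None of the 36 was called lower (limma), where 1.45% of all mRNAs were; 10 had an unadjusted p under 0.05, beside 24.2% of all mRNAs, and in 11 the groups did not overlap, beside 30.5%. Of these 11, 8 had all neonatal values above and 3 all below, beside 20.9% and 9.64% of all mRNAs. The counts by unadjusted p and by overlap thus lie near the shares of the whole table. The 4 of 36 called higher lie above the 5.41% of all mRNAs, but they are few and nothing particular to the pathway is read from them. The median difference of the 36 genes was 0.14 on the log2(FPKM + 1) scale, beside 0.13 for all mRNAs. The 4 calls rested on all 6 libraries: with each sample left out in turn, 0 or 1 remained, DTX4 without Prenatal3 and ADAM17 without Neonatal1.

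**Figure D3:**
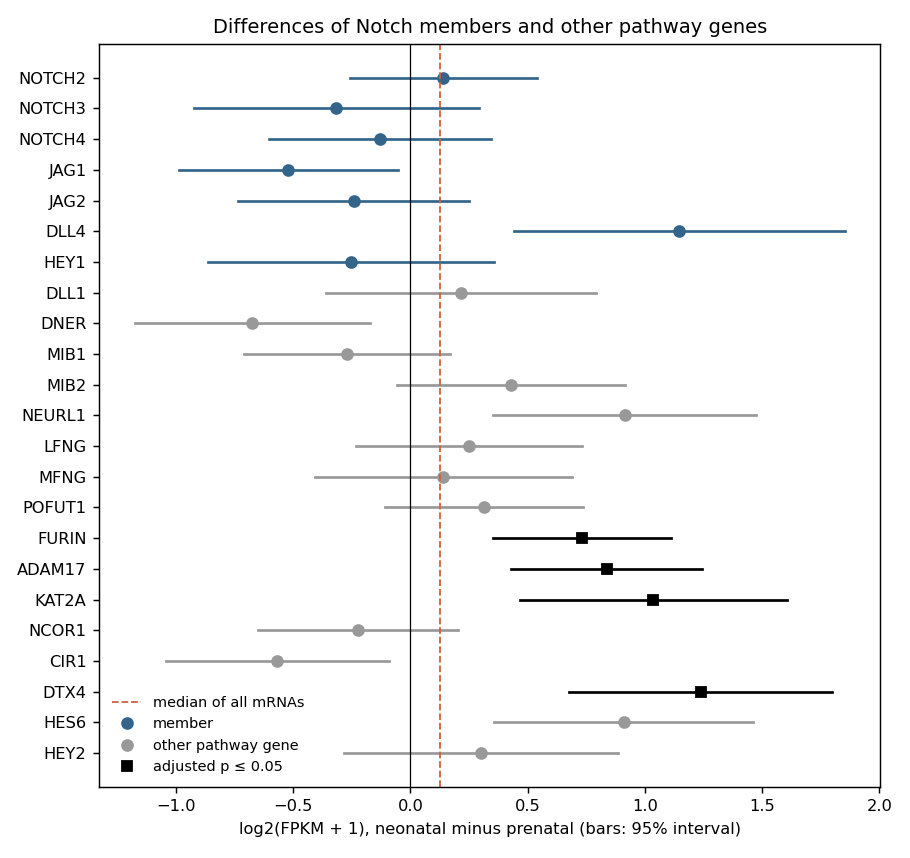
Difference between the groups (neonatal minus prenatal) in log2(FPKM + 1), with 95% intervals, for the 7 Notch members in blue and 16 other pathway genes, with those of an adjusted p of 0.05 or less as black squares. The dashed line marks the median of all mRNAs, 0.13, and the black squares are FURIN, ADAM17, KAT2A and DTX4, between 0.73 and 1.24.

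The receptor is cut by FURIN on its way to the surface, later by ADAM10 or ADAM17, and then by γ-secretase, of which presenilins are the catalytic subunits. FURIN was at 26.1, 23.2 and 25.3 FPKM before birth and 43.0, 44.2 and 38.8 FPKM after birth, a rise of 0.73 on the log2(FPKM + 1) scale (standard error 0.16, limma adjusted p = 0.0411) that did not pass after median-of-ratios scaling (0.0768) or quantile normalization (0.157). ADAM17, which also sheds TNF and ligands of the EGF receptor, was at 10.21, 9.33 and 9.20 FPKM before and 16.1, 16.9 and 20.9 FPKM after birth, a rise of 0.84 (standard error 0.17, limma adjusted p = 0.0340). ADAM17 passed under both scalings, with adjusted p of 0.0390 and 0.0388. ADAM10, named after its values were seen, was at 30.3, 26.6 and 26.9 FPKM before and 20.8, 21.4 and 21.1 FPKM after birth. Its groups did not overlap either, with all neonatal values below, and the difference of -0.39 (standard error 0.16, limma adjusted p = 0.189) passed only after quantile normalization (-0.65, adjusted p = 0.0412).

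Of the genes that act on the ligand, DLL1, another Delta-like ligand, overlapped between the groups with a difference of 0.22 on the log2(FPKM + 1) scale, which ran from 0.028 to 0.39 when any 1 sample was removed. DNER, a Notch-binding protein known from neurons, was low, at 0.937, 0.385 and 0.552 FPKM before birth, and was listed at 0, 0 and 0.0259 FPKM after birth (difference -0.67, limma adjusted p = 0.111). The ubiquitin ligases MIB1, MIB2 and NEURL1, which drive uptake of bound ligand, had differences of -0.27, 0.43 and 0.91 (limma adjusted p = 0.415, 0.255 and 0.0679). NEURL1 was the lowest of these, with 1.02, 0.540 and 0.241 FPKM before and 2.27, 1.84 and 1.78 FPKM after birth, all neonatal values above. The enzymes that add sugars to the receptor, LFNG, MFNG and POFUT1, had differences of 0.25, 0.14 and 0.31, and none passed. That of LFNG was 0.067 without Prenatal2, 0.079 after median-of-ratios scaling and 0.012 after quantile normalization, and that of POFUT1 was 0.17 and 0.18 under these scalings. That of MFNG turned to -0.024 after median-of-ratios scaling and to -0.055 after quantile normalization, and ran from 0.0090 to 0.34 when any 1 sample was removed.

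In the nucleus, the DNA-binding partner RBPJ was at 8.58 ± 0.558 and 7.43 ± 1.51 FPKM (SD, n = 3 each) and the coactivator MAML1 at 8.83 ± 1.13 and 9.79 ± 0.327 FPKM (SD, n = 3 each), with limma adjusted p of 0.564 and 0.648. These 2 genes were named for their role after their values were seen. KAT2A, a histone acetyltransferase, rose from 5.85, 3.42 and 3.21 FPKM to 7.95, 9.48 and 10.7 FPKM (difference 1.04, standard error 0.24, limma adjusted p = 0.0485), and did not pass under either scaling (0.0542 and 0.0523). Of the co-repressors, CIR1 had the largest difference, -0.57 with all neonatal values below (limma adjusted p = 0.145), while NCOR1 stood at -0.22 and overlapped.

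DTX4, a Deltex family ubiquitin ligase that acts on Notch, had the lowest adjusted p of the 36 genes. It was at 3.35, 4.56 and 6.77 FPKM in the prenatal and at 12.9, 11.5 and 13.2 FPKM in the neonatal piglets, with no overlap between the groups. The rise was 1.24 on the log2(FPKM + 1) scale (standard error 0.24, 95% interval 0.68 to 1.80, limma adjusted p = 0.0275). DTX4 passed narrowly after median-of-ratios scaling (limma adjusted p = 0.0498) and quantile normalization (0.0482), and did not pass with the replicate block (0.0633). Of the further HES and HEY genes found, HES6, which differs from HES1 in opposing rather than carrying its repression, was at 5.08, 4.68 and 7.17 FPKM before and 10.3, 9.50 and 14.8 FPKM after birth, without overlap (difference 0.91, limma adjusted p = 0.0661). HEY2, the arterial relative of HEY1, overlapped, with a difference of 0.30. NRARP, a feedback inhibitor that Notch itself induces and named after its values were seen, varied most between piglets of one group, from 2.82 to 48.9 FPKM before and from 4.36 to 31.5 FPKM after birth, and its difference of -0.19 had a standard error of 0.98 (limma adjusted p = 0.920). Its sign rested on single libraries: the difference was 0.63 without Prenatal3, 0.49 without Neonatal3 and 0.0030 without Prenatal1, and -1.22 without Prenatal2 and -0.81 without Neonatal2.

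Since DLL4 and NOTCH4 are known from endothelium, the endothelial markers are given beside them. The 8 endothelial markers found had a summed level of 481 to 607 FPKM before and 655 to 893 FPKM after birth, none passed and none was listed at 0. CLDN5, a tight junction protein, accounted for more than this whole difference, at 225, 198 and 265 FPKM before and 377, 616 and 617 FPKM after birth. The other 7 markers, added up after these values were seen, summed to 283 to 342 FPKM before and 270.0 to 278 FPKM after birth, so without CLDN5 every neonatal sum was below every prenatal one. On the log2(FPKM + 1) scale, the sialomucin EMCN, the VEGF receptor KDR and the angiopoietin receptor TEK had differences of -0.74, -0.40 and -0.48, EMCN and KDR with all neonatal values below. CLDN5 and EMCN did not pass in limma but are on the paper's list of changed mRNAs, called there with Cuffdiff. Their symbols were taken from that list. Whether other genes that did not pass, DLL4 and JAG1 among them, are on it is not stated here. TIE1, PECAM1, ERG and ROBO4 lay between -0.10 and 0.12 and overlapped. The arterial gap junction gene GJA5 rose from 11.9, 9.37 and 15.5 FPKM to 23.9, 25.0 and 30.7 FPKM. The difference was 1.07 (limma adjusted p = 0.0332). Among the prenatal piglets GJA5 was highest in Prenatal3, as were DLL4, PECAM1, KDR, TEK, TIE1, CLDN5, ROBO4 and BMX. ERG, EMCN and EFNB2 were highest in Prenatal1. The other arterial markers found, EFNB2 and BMX, stood at 0.091 and 0.096 and did not pass. The part of the endothelial and arterial cells in the DLL4 values was not tested.

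**Figure D4:**
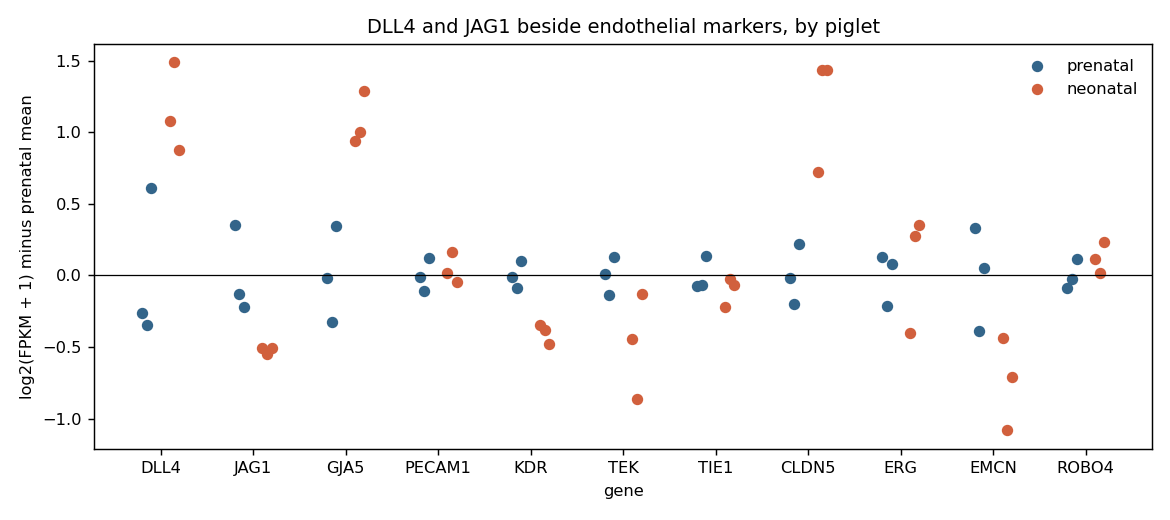
log2(FPKM + 1) of each piglet minus the prenatal mean of the gene (vertical axis) for DLL4, JAG1, the arterial marker GJA5 and the 8 endothelial markers found, with 3 prenatal points in blue and 3 neonatal points in orange per gene. DLL4 reaches 0.88 to 1.49, GJA5 0.94 to 1.28 and CLDN5 0.725 to 1.435 in the neonatal piglets. PECAM1 stays between -0.046 and 0.17 and EMCN lies between -1.08 and -0.43. The arterial markers EFNB2 and BMX are not shown.

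For the airway, where Notch sets the secretory fate, the ciliated markers found (FOXJ1, TEKT1 and CCDC39) summed to 46.7 to 77.1 FPKM before and 46.2 to 50.6 FPKM after birth. The 4 secretory and basal markers found summed to 2422 to 6983 FPKM before and 954 to 3217 FPKM after birth, mostly SCGB3A2. SCGB1A1 was at 138.5, 119 and 99.8 FPKM before and 62.2, 0.213 and 62.0 FPKM after birth, so it was almost absent in Neonatal2. Its difference on the log2(FPKM + 1) scale was -2.82 (limma adjusted p = 0.265). SCGB3A2, SCGB3A1 and TP63 stood at -1.57, -0.094 and 0.084 and overlapped. None of these 7 airway genes passed and none was listed at 0. The part of these genes in the JAG1 and JAG2 values was not tested.

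The pattern of each member over the 6 samples was compared with that of 5528 genes that carry a symbol and a mean of at least 5 FPKM. The gene most like DLL4 was KCNE3, a potassium channel subunit (Pearson r = 0.993), and 48 genes had an r over 0.95 with DLL4. KCNE3 was at 2.57, 2.16 and 4.76 FPKM before and 6.77, 10.8 and 6.03 FPKM after birth. Its values put the 6 piglets in the same order as those of DLL4. The gene most like JAG1 was CLIP1 (r = 0.993), with 15 genes over 0.95. For NOTCH2, NOTCH3, NOTCH4, JAG2 and HEY1 these were KMT5A, STX16, ZCCHC14, DENND10 and YIPF1, with r between 0.960 and 0.987. Among the members themselves, the r of NOTCH4 with HEY1 was 0.88 and that of JAG1 with DLL4 was -0.86. These coefficients rest on 6 samples in 2 groups and on a search over many genes and are given as a description.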

How the data were processed

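Ribosomal RNA was depleted from the RNA of 6 lungs with the Ribo-Zero kit before strand-specific sequencing. The deposited mRNA table holds FPKM, which the authors computed with Cufflinks 2.2.1 after aligning the reads with TopHat 2.1.0 to the Sscrofa10.2 genome; mRNAs were kept above 0.5 FPKM in at least 1 sample, which all rows met. Symbols came from a table of pig gene names (9478 rows) and, for 362 more, from the part of the paper's list of changed mRNAs that was read. All 6 value columns were matched to samples by name. The lncRNA table was not used.

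Values were analysed as log2(FPKM + 1) with limma 3.58.1 under R 4.3.3, allowing the variance to follow the mean, across all 14579 rows, with Benjamini-Hochberg adjustment and a threshold of 0.05. A difference on this scale understates the change of low genes. The paper called changed mRNAs from the reads with Cuffdiff, so a gene that did not pass here can be on its list. The fit was also run on simulated data with independent noise for each gene. The outcome of that run is not given here, and no statement on how small a difference these samples can show rests on it. Shares were compared with exact permutation tests. Figures were drawn with matplotlib 3.10.9.

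Members, lists and tests were chosen with earlier results of these data known. All members found were named; of the other pathway genes, those past the threshold, or up to 3 for a role without one, and for each member the gene of highest Pearson r. Beside the genes given, 1 further pathway gene that this rule names is not reported here. Alternatives were pseudocounts of 0.5 and 0.1, median-of-ratios scaling, only rows above 1 FPKM in at least 3 samples, quantile normalization, no variance trend, a replicate block, and each sample left out; for shares, DLL1 in the ligand sum. Intervals are limma's 95% intervals and cover the spread between piglets only. No sequence or coordinate is given, since no genome of this build was used here.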

Additional observations from a re-analysis of the deposited data

How the results depend on the processing

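The direction of DLL4, JAG1, JAG2, NOTCH3 and HEY1 was the same under all 13 alternatives that were run. That of NOTCH2 reversed to -0.027 after median-of-ratios scaling and to -0.075 after quantile normalization, that of NOTCH4 to 0.045 without Prenatal3 (with each sample left out, between -0.23 and 0.045), and that of MFNG to -0.024 and -0.055 under these scalings. DLL4 passed the threshold without Prenatal3, at 1.45, and with each sample left out it lay between 0.97 and 1.45. JAG1 passed after quantile normalization, at -0.77. The count of members called was thus 1 higher without Prenatal3 and 1 lower after quantile normalization, and 0 in each direction under the other alternatives. The 4 other pathway genes called higher became 2 after median-of-ratios scaling, 2 after quantile normalization, 2 without a variance trend and between 0 and 1 with a sample left out, and 1 gene, ADAM10, was called lower after quantile normalization. Over all mRNAs, with 789 higher and 212 lower, the calls with a sample left out lay between 163 and 785 higher and between 33 and 159 lower, and 335 were lower after median-of-ratios scaling and 487 after quantile normalization. The share of calls that were higher went from 78.8% to 66.0% and 57.9% under these scalings. The differences in ligand and receptor shares moved by less than the SD pooled over both groups after quantile normalization. Those of the ligands also did so with DLL1 in the sum. Leaving out 1 of 3 piglets cannot move a difference by that SD, so this measure shows no stability there. The NOTCH3 difference went from -5.25 to -1.48 points without Neonatal3, and that of NOTCH4 changed sign without Prenatal3 (1.89 points) and without Neonatal1 (0.373 points). The cause of these changes was not tested.

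The replicate numbers do not pair the piglets, which came from different sows: the deviations of same-numbered samples from their group means correlated at -0.041, -0.0040 and 0.00 over all mRNAs, and 0 of 6 samples correlated best with their own number. With the replicate block, 0 other pathway genes were called, and over all mRNAs 336 were called higher and 65 lower. The smallest p of a permutation test of 3 against 3 is 0.1, and FPKM without counts leaves the precision of low genes such as DNER and NEURL1 unknown.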
